A study of Mus musculus with 18 samples.

Results

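Expression of 10 genes of the Notch and Wnt pathways was examined in AT3 cells, a mouse mammary carcinoma line that the study used as a model of triple-negative breast cancer (TNBC), after inhibition of the acetyltransferases P300/CBP with or without interferon gamma (IFNγ). The 10 genes were listed by name, 6 for Notch (Jag1, Jag2, Notch1, Notch2, Hes1 and Hey1) and 4 for Wnt (Axin2, Nkd1, Nkd2 and Lef1), among 43629 gene identifiers of the count table. All 10 were found by symbol. The data are 18 libraries of 3′ mRNA sequencing (QuantSeq) in 6 groups of 3. Groups were DMSO (the vehicle of the inhibitors), A-241 at 250 nM, A-485 at 1000 nM, IFNγ alone, A-241 with IFNγ and A-485 with IFNγ. All groups without an inhibitor received DMSO in its place. Cells had the inhibitor or DMSO for 1 h, after which IFNγ at 1 ng/mL or its vehicle was added for 2 h more, 3 h in total. A-241 and A-485 are chemically distinct inhibitors of the catalytic domain of P300/CBP, and they were used at unequal doses, so compound and dose cannot be told apart where the inhibitors are compared. The labels give the doses for the groups without IFNγ, and the study's methods give them for the combinations. The labels call the replicates biological and the study's methods call them technical, all are of 1 cell line, and p values may measure only the spread between libraries of 1 experiment.

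In Notch signaling, a ligand of the Jagged or Delta-like family on a cell binds a Notch receptor on its neighbor, the receptor is cut, and its intracellular part enters the nucleus and joins the DNA-binding protein RBPJ and a Mastermind coactivator, with P300/CBP recruited, to switch on targets such as the repressors Hes1 and Hey1. In canonical Wnt signaling, a Wnt ligand binds a Frizzled receptor with Lrp5 or Lrp6, β-catenin is spared from destruction, and it activates transcription with factors of the TCF/LEF family, also with P300/CBP among its coactivators. Axin2, Nkd1 and Nkd2 are inhibitors of the Wnt pathway, and Axin2, Nkd1 and Lef1 are commonly used as readouts of it. Both pathways take part in the growth and cell fates of the mammary epithelium.

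The libraries held between 3417167 and 7856830 counts, with a median of 4880947.5. At these depths 3 counts, the most that a count of 0 allows, correspond to between 0.382 and 0.878 CPM (counts per 1000000 counts of a library, with library sizes scaled by TMM factors where levels are given). The number of counts limits the precision of low genes. IFNγ raised its known target Irf1 by 5.05 on the log2 scale (SE 0.31, adjusted p = 3.52e-08). Hexim1, an inhibitor of the elongation factor P-TEFb that was used here as a check on the inhibitors, rose by 1.63 with A-241 (SE 0.14, adjusted p = 1.63e-06) and by 0.84 with A-485 (SE 0.14, adjusted p = 0.00406) against DMSO, and with IFNγ its values were 1.10 (adjusted p = 6.39e-05) and 0.079 (adjusted p = 0.823). The epithelial markers Krt8, Krt18, Krt14, Krt5, Epcam and Cdh1 were present in all libraries, at medians of between 56.5 (Krt5) and 462 CPM (Cdh1), and so was the mesenchymal marker Vim. The endothelial marker Cdh5 and the macrophage marker Adgre1 had no count in any library. Of the other markers of stroma, leukocytes and endothelium (Col1a1, Pdgfra, Pdgfrb, Cd68, Cd3e and Pecam1), none had more than 20 counts in a library. The pan-leukocyte gene Ptprc had a median of 1.07 CPM and reached 17.0 CPM in A-485 replicate 3. The non-coding RNA Gm42418, which overlaps ribosomal RNA sequence, took 20.1% of the counts of DMSO replicate 3 and 23.0% of IFNγ replicate 2, against between 7.11% and 16.2% in the other 16 libraries, and fits were also made without those 2 libraries.

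Of the 10 genes, 6 had enough counts to be tested (Jag1, Notch1, Notch2, Hes1, Hey1 and Nkd2). Jag2 had between 2 and 13 counts per library and did not pass the filter on low counts. Axin2, Nkd1 and Lef1 had at most 4, 1 and 4 counts in any library. Tests were made with edgeR over 11964 genes, those with an adjusted p under 0.01 count as called, and all changes are log2 fold changes with their standard error (SE). A bulk measurement cannot tell fewer cells that express a gene from less RNA per cell. Where groups of 3 libraries are said not to overlap, the share of all genes that show this was not counted. Such statements describe the levels and are not tests.

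**Figure D1:**
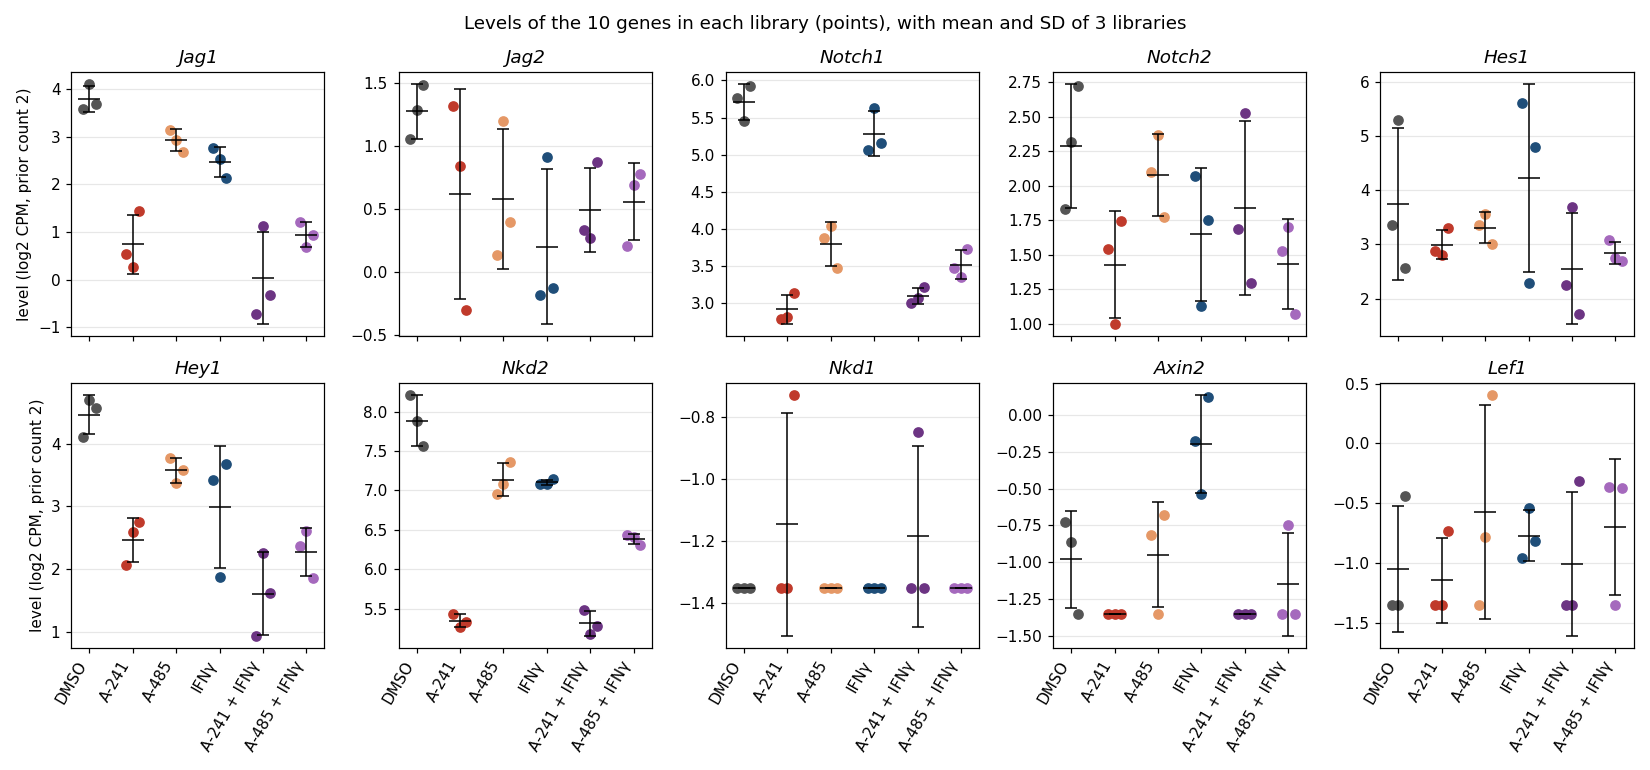
Level of each of the 10 genes (log2 CPM with a prior count of 2, vertical axis, scaled for each gene) in the 3 libraries of each of the 6 groups. Points are libraries, the bar is their mean and the whiskers are 1 SD (n = 3). Notch1 lies lower in all 12 libraries with an inhibitor than in the 6 without, and Nkd1, Axin2 and Lef1 lie at or near the limit of 3 counts throughout.

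With A-241 alone, 4 of the 6 genes tested fell against DMSO, namely the ligand gene Jag1, the receptor gene Notch1, the target gene Hey1 and the Wnt inhibitor gene Nkd2. Among all genes tested, 3.53% were called lower in this comparison. With A-485 alone 1 of the 6, Notch1, fell, where 0.619% of all genes were called lower. In the presence of IFNγ, 3 of the 6 (Jag1, Notch1 and Nkd2) fell with A-241, against 3.54% of all genes, and 1 (Notch1) fell with A-485, against 0.535%. No member rose in any of the 4 comparisons. The median change of the 6 genes was -2.32 with A-241 and -0.92 with A-485 without IFNγ, beside medians over all genes of 0.014 and -0.0040. With IFNγ the medians of the 6 genes were -1.91 and -1.36, beside -0.018 and -0.033 over all genes. The members were chosen with results of these data known, so that these counts are a description of the list.

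Jag1, which encodes the ligand Jagged-1, is on the minus strand of chromosome 2 (chr2:137081456-137116644, GRCm38). In the 3 DMSO libraries it was at 11.6, 16.9 and 12.4 CPM, and with A-241 at 1.05, 0.801 and 2.32 CPM. With A-485 it was at 8.47, 7.25 and 6.04 CPM. The 3 groups do not overlap, and the levels with A-485 lie between those with DMSO and with A-241. With IFNγ alone Jag1 was at 6.39, 5.36 and 4.02 CPM, below every DMSO library. A-241 with IFNγ gave 0.217, 1.79 and 0.412 CPM, from 1, 11 and 2 counts, and A-485 with IFNγ gave 1.91, 1.22 and 1.52 CPM. Both combinations lay below all libraries with IFNγ alone, and they overlap each other.

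Against DMSO, Jag1 fell by 3.29 with A-241 (SE 0.44, adjusted p = 0.000146), which is 9.77 times lower. The change with A-485 was -0.91 (SE 0.37, adjusted p = 0.292) and did not pass. With IFNγ in both groups, Jag1 fell by 2.57 with A-241 (SE 0.49, adjusted p = 0.00286), and the change with A-485 was -1.75 (SE 0.45, adjusted p = 0.0598). The call for A-241 with IFNγ depends on single libraries. It was lost without IFNγ replicate 1 (adjusted p = 0.0148), A-241 with IFNγ replicate 1 (adjusted p = 0.0161) or replicate 3 (adjusted p = 0.0218). Without A-241 with IFNγ replicate 2, which holds 11 of the 14 counts of its group, the change was -3.96 (adjusted p = 0.000451), and in a fit of only the groups compared it was -2.58 and did not pass (adjusted p = 0.0955). The call for A-241 alone was kept whichever library was left out. Jag2, which encodes the related ligand Jagged-2 (chr12:112907819-112929776, minus strand), was at 1.69, 2.05 and 2.42 CPM in DMSO. The other groups ranged from 0.421 to 2.1 CPM. All groups overlap with the range of A-241 alone, and Jag2 was not tested.

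Notch1, which encodes a Notch receptor, is on the minus strand of chromosome 2 (chr2:26457903-26516663, GRCm38). Its level was 53.8, 43.3 and 60.5 CPM in DMSO, 6.52, 6.61 and 8.43 CPM with A-241, and 14.3, 16.0 and 10.7 CPM with A-485. It was 33.2, 49.2 and 35.1 CPM with IFNγ alone, 7.61, 7.99 and 8.87 CPM with A-241 and IFNγ, and 10.7, 9.78 and 12.9 CPM with A-485 and IFNγ. Every library with an inhibitor was below every library without. All 6 A-241 libraries also lay below all 6 A-485 libraries. Each inhibitor overlapped itself with and without IFNγ, and so did DMSO and IFNγ.

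Notch1 fell by 2.86 (SE 0.22, adjusted p = 4e-07) without IFNγ and fell by 2.25 (SE 0.21, adjusted p = 4.08e-06) with it under A-241, which are 7.27 and 4.77 times lower. Under A-485 it fell by 1.93 (SE 0.21, adjusted p = 0.000115) and fell by 1.80 (SE 0.21, adjusted p = 0.000417), which are 3.81 and 3.49 times lower. All 4 calls were kept whichever single library was left out. When only the 2 groups compared were fitted, both calls for A-485 were lost, with changes of -1.94 (adjusted p = 0.0736) and -1.82 (adjusted p = 0.0888). In those fits no gene of all tested was called lower. The exons of Notch1 share bases, at its 3′ end, with 0610009E02Rik and Gm13568 on the other strand. The authors' counting assigned a read on several genes to each of them, and those genes had at most 3 and 1 counts in a library.

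Notch2, which encodes another receptor of the family (chr3:98013527-98150361, plus strand), was not called in any comparison. It was at 3.16, 4.58 and 6.22 CPM in DMSO and at 2.52, 1.60 and 2.95 CPM with A-241, a change of -0.95 (SE 0.41, adjusted p = 0.166) with an interval of -1.80 to -0.088. The groups do not overlap, on between 8 and 29 counts a library. With A-485 the change was -0.22 (95% interval -1.02 to 0.59). With IFNγ in both groups it was 0.22 for A-241 (95% interval -0.60 to 1.05) and -0.34 for A-485 (95% interval -1.21 to 0.52). These 3 intervals cover 0 and reach beyond 1 in one direction or another, so that a change of that size is not excluded.

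Hey1 and Hes1 encode transcriptional repressors of the basic helix-loop-helix class that Notch signaling induces. Hey1 (chr3:8663359-8667256, minus strand) was at 16.9, 25.6 and 23.5 CPM in DMSO, 3.79, 5.61 and 6.32 CPM with A-241, and 13.2, 9.92 and 11.6 CPM with A-485. The 3 groups do not overlap. It fell by 2.06 with A-241 (SE 0.39, adjusted p = 0.00282), or 4.18 times. The change with A-485 was -0.92 (SE 0.37, adjusted p = 0.288). The call for A-241 was lost without DMSO replicate 2 (adjusted p = 0.011) and without A-241 replicate 1 (adjusted p = 0.0234), replicate 2 (adjusted p = 0.0161) or replicate 3 (adjusted p = 0.0118). It was also lost with total counts in place of TMM (adjusted p = 0.0103) and with only the groups compared (adjusted p = 0.0138).

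With IFNγ alone Hey1 was at 10.3, 3.28 and 12.4 CPM, and the low value is that of replicate 2, a library rich in Gm42418. A-241 with IFNγ gave 1.52, 4.40 and 2.68 CPM and A-485 with IFNγ gave 4.78, 5.70 and 3.23 CPM, so that both overlap with IFNγ alone only through that library. The changes were -1.60 (SE 0.42, adjusted p = 0.025) and -0.97 (SE 0.40, adjusted p = 0.272). Without IFNγ replicate 2 the change with A-241 was -1.93 and passed (adjusted p = 0.00143). The part of the library's composition in this result was not tested.

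Hes1 (chr16:30064384-30067796, plus strand) varied more between libraries of a group than the other members. Its biological coefficient of variation was 0.583, against 0.172 for Notch1 and 0.163 for Nkd2. In DMSO it was at 9.91, 39.2 and 5.53 CPM and with IFNγ alone at 48.7, 4.47 and 27.5 CPM. The lowest value of each group is that of the library rich in Gm42418. All 12 libraries with an inhibitor lay between 2.89 and 12.6 CPM, a range that overlaps with both groups without an inhibitor. Changes with A-241 were -1.29 (SE 0.72, adjusted p = 0.295) and, with IFNγ, -2.02 (SE 0.72, adjusted p = 0.105), and with A-485 -0.96 (SE 0.70, adjusted p = 0.617) and -2.01 (SE 0.72, adjusted p = 0.196). With both libraries rich in Gm42418 left out, the changes with IFNγ were -2.48 (adjusted p = 0.000935) for A-241 and -2.50 (adjusted p = 0.00256) for A-485, and both passed. Without DMSO replicate 2 the changes against DMSO were -0.042 for A-241 and 0.30 for A-485, so that the size of both rests on that library.

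**Figure D2:**
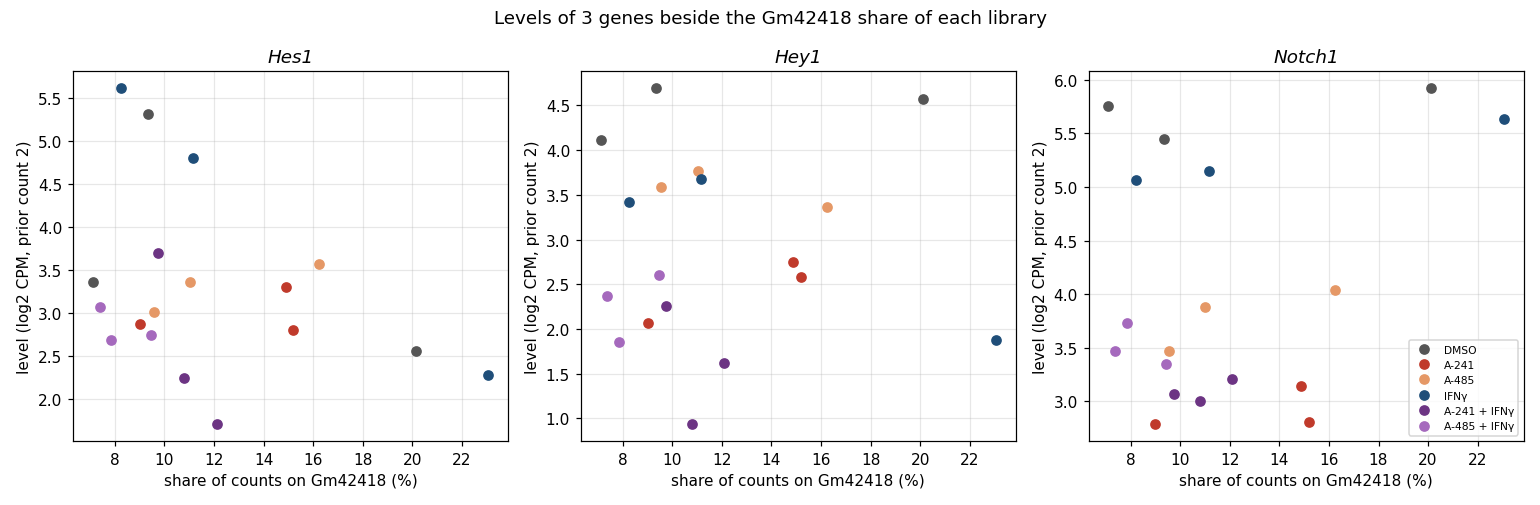
Level of Hes1, Hey1 and Notch1 (log2 CPM, vertical axis) against the share of counts on Gm42418 (percent, horizontal axis) in the 18 libraries, colored by group. Within DMSO and within IFNγ the library with the highest share (20.1% and 23.0%) has the lowest Hes1 level, and the IFNγ library also has the lowest Hey1 level of its group. For Notch1 those 2 libraries are the highest of their groups.

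Nkd2 encodes Naked cuticle homolog 2, a protein that binds Dishevelled and restrains Wnt signaling, and is on the minus strand of chromosome 13 (chr13:73818534-73847631, GRCm38). With between 186 and 1490 counts per library it had the most counts of the 10 genes. It was at 295, 235 and 189 CPM in DMSO, 42.9, 38.3 and 39.8 CPM with A-241, and 124, 135 and 164 CPM with A-485. With IFNγ alone it was at 135, 135 and 141 CPM, with A-241 and IFNγ at 44.4, 35.9 and 38.4 CPM, and with A-485 and IFNγ at 85.7, 84.9 and 78.6 CPM. From the highest to the lowest group mean the order was DMSO (7.88 ± 0.32 log2 CPM, SD, n = 3), A-485 (7.13 ± 0.21), IFNγ (7.10 ± 0.034), A-485 with IFNγ (6.38 ± 0.068), A-241 (5.35 ± 0.083) and A-241 with IFNγ (5.31 ± 0.16). A-485 and IFNγ overlap, and so do both A-241 groups, while the other neighbors do not.

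With A-241 Nkd2 fell by 2.57 (SE 0.17, adjusted p = 1.32e-07), or 5.95 times, without IFNγ and fell by 1.79 (SE 0.17, adjusted p = 4.08e-06), or 3.46 times, with it. Both calls were kept whichever single library was left out. The changes with A-485 were -0.77 (SE 0.16, adjusted p = 0.0212) and -0.72 (SE 0.16, adjusted p = 0.0354). Neither passed. No library with A-485 reached the lowest library of its control group, which describes the levels and is not a test. The former passed in 1 of 6 fits that left out a library, that without DMSO replicate 3 (-0.90, adjusted p = 0.00559). Without A-485 replicate 1 its adjusted p was 0.15.

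The other Wnt genes were close to undetected. Axin2 (chr11:108920349-108950783, plus strand), which encodes a scaffold of the β-catenin destruction complex, had 4, 1 and 4 counts with IFNγ, 0 in all 6 libraries with A-241, and 0 or 1 in the others. Lef1 (chr3:131110471-131224356, plus strand), a DNA-binding partner of β-catenin, had 16 counts over all 18 libraries. Nkd1 (chr8:88521354-88594884, plus strand), the relative of Nkd2, had 1 count in each of 2 libraries and 0 in the other 16. A count of 0 allows up to 3 counts, or 0.382 to 0.878 CPM depending on the library, and for these genes no fold is given, since nearly all of their libraries are at or below that limit.

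**Figure D3:**
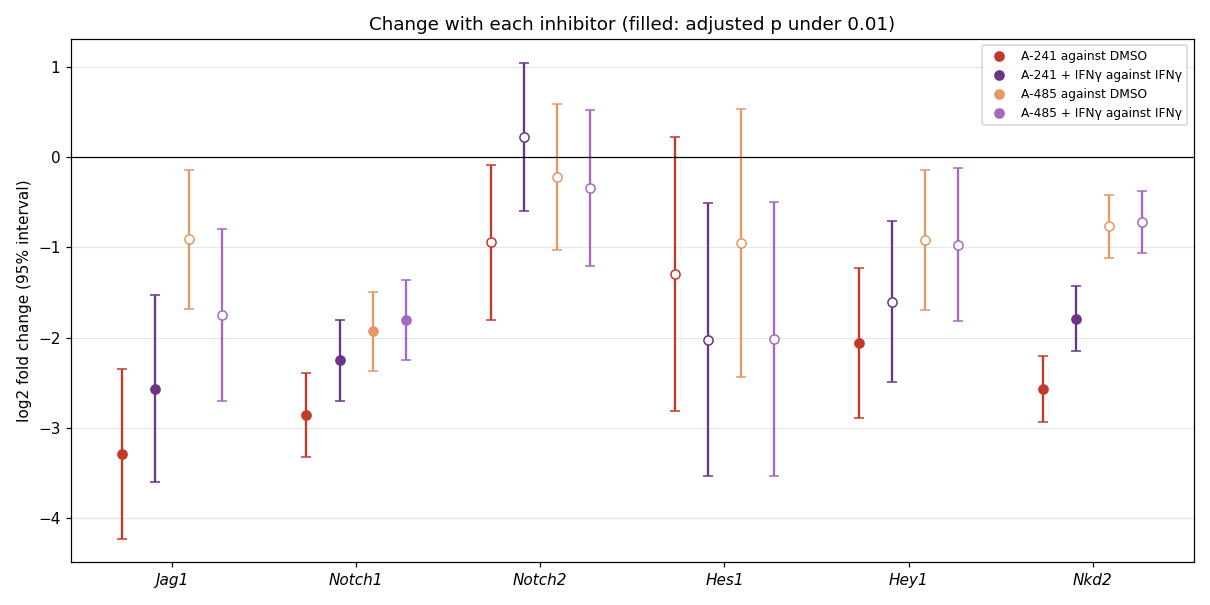
Log2 fold change of the 6 genes tested (vertical axis) with each inhibitor, against DMSO or, with IFNγ in both groups, against IFNγ. Points are the estimates of edgeR, filled where the adjusted p is under 0.01, and whiskers are 95% intervals. Notch1 is filled in all 4 comparisons, and Jag1 and Nkd2 are filled in both comparisons of A-241 only.

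Promoter sequences are shown for Notch1, Jag1 and Nkd2, the 3 genes that fell with A-241 both without and with IFNγ. They are from RefSeq (GRCm38.p6) and run, on the strand of the gene, from 250 bases before the start of transcription to 50 bases after it. They are on the minus strand, at chr2:26503773-26504072 for Notch1, within the span of the gene given above, at chr2:137116471-137116770 for Jag1 and at chr13:73847582-73847881 for Nkd2. Capitals mark TGGGAA, the core bound by RBPJ.
Notch1: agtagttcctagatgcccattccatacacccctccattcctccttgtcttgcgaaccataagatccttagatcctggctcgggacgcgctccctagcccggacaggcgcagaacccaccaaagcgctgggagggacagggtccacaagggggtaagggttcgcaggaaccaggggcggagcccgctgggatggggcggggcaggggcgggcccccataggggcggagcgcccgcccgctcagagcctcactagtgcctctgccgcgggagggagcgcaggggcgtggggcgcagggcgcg
Jag1: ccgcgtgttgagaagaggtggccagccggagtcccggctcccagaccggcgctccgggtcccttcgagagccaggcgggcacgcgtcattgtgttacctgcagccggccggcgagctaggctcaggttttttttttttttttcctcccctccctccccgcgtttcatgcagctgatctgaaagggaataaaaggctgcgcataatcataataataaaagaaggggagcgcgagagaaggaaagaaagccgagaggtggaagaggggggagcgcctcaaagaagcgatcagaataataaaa
Nkd2: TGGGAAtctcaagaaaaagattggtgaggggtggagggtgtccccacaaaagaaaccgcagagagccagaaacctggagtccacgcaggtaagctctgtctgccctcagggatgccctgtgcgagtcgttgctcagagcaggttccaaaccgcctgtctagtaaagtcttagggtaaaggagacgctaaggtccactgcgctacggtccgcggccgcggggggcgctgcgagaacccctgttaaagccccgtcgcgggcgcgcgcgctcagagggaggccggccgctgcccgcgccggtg

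The RBPJ core (TGGGAA on either strand) was found once in the Nkd2 window, at its first base, 250 bases before the start, and not in the windows of Notch1 or Jag1. The letters occur in 25.6% of the 32851 promoters of the table. The core of TCF/LEF sites (CTTTGAT or CTTTGAA on either strand) was in none of the 3 windows and in 8.65% of all promoters. The letters of neither motif contain those of the other. The windows had 68.3% (Notch1), 55.7% (Jag1) and 63.0% (Nkd2) G or C and 23, 22 and 26 CpG dinucleotides, beside medians of 52.7% and 7 over all promoters. Of the members, 8 matched the table, with 11 windows in all. Of the other 5 matched genes, Lef1 alone held the RBPJ core, in 3 of its 4 windows, of which 2 overlap and hold it at the same site. A match of letters is a description and not a bound site.

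When the effect of each inhibitor was averaged over the backgrounds without and with IFNγ, A-241 lowered 4 of the 6 genes, against 7.05% of all genes. The changes were -2.93 for Jag1 (SE 0.33, adjusted p = 9.71e-06), -2.56 for Notch1 (SE 0.15, adjusted p = 8.87e-09), -2.18 for Nkd2 (SE 0.12, adjusted p = 4.58e-09) and -1.83 for Hey1 (SE 0.29, adjusted p = 0.000254). Each of these calls was kept in all 12 fits that left out 1 library, and without A-241 with IFNγ replicate 2 the change of Jag1 was -3.62. Hes1 had -1.66 (SE 0.51, adjusted p = 0.029), which passed without IFNγ replicate 2 (-1.91, adjusted p = 0.00352) and was -1.03 without DMSO replicate 2 (adjusted p = 0.119). A-485 lowered 2 of the 6, against 2.39% of all genes, namely Notch1 with -1.87 (SE 0.15, adjusted p = 1.99e-06) and Nkd2 with -0.74 (SE 0.12, adjusted p = 0.000935). With only the groups compared in the fit, Nkd2 was not called (-0.74, adjusted p = 0.0115) and Jag1 was (-1.33, adjusted p = 0.00403). In the fit of all groups Jag1 missed the threshold with -1.33 (SE 0.29, adjusted p = 0.0105), as did Hey1 with -0.95 (SE 0.27, adjusted p = 0.0496). Without IFNγ replicate 2 both passed, with -1.35 (adjusted p = 0.00931) and -1.13 (adjusted p = 0.00325).

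Directly compared, A-241 at 250 nM left Nkd2 lower than A-485 at 1000 nM did. The difference was -1.81 (SE 0.17, adjusted p = 2.2e-05, 95% interval -2.16 to -1.45) without IFNγ and -1.07 (SE 0.17, adjusted p = 0.0025, 95% interval -1.43 to -0.72) with it. Nkd2 was the 1 member of 6 called lower in each, where 0.351% and 0.51% of all genes were. The call with IFNγ was lost without A-241 with IFNγ replicate 2 (adjusted p = 0.0287) or 3 (adjusted p = 0.0218) and without A-485 with IFNγ replicate 1 (adjusted p = 0.016) or 2 (adjusted p = 0.011). For Jag1 the difference without IFNγ was -2.38 (95% interval -3.34 to -1.42, adjusted p = 0.0166), and with IFNγ it was -0.82 (95% interval -2.02 to 0.39, adjusted p = 1.0). The latter was -2.21 without A-241 with IFNγ replicate 2, -0.42 without replicate 1 and -0.49 without replicate 3 of that group, and none of these passed. For Notch1 they were -0.93 (95% interval -1.39 to -0.47, adjusted p = 0.0564) and -0.45 (95% interval -0.91 to 0.011, adjusted p = 0.797). For Hey1 they were -1.14 (95% interval -1.98 to -0.30, adjusted p = 0.325) and -0.63 (95% interval -1.57 to 0.31, adjusted p = 1.0). Notch2 and Hes1 had intervals that cover 0 in both comparisons. The intervals are not adjusted for the number of genes, so that some exclude 0 where the adjusted p did not pass.

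**Figure D4:**
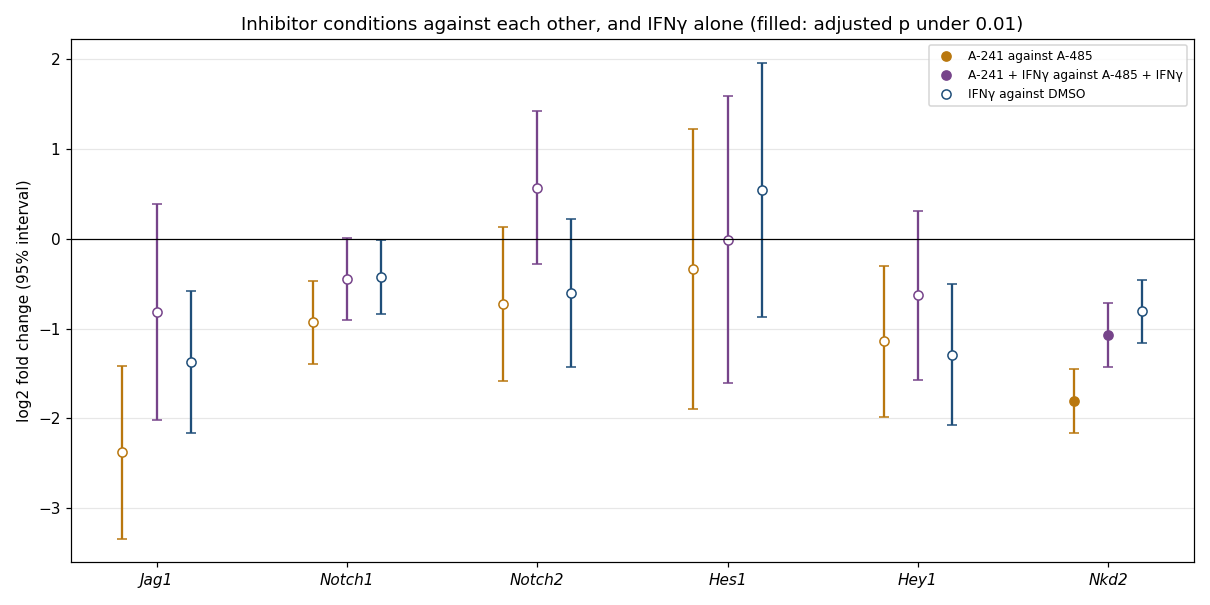
Log2 fold change of the 6 genes tested (vertical axis) between A-241 and A-485, without and with IFNγ, and between IFNγ and DMSO. Points are the estimates of edgeR, filled where the adjusted p is under 0.01, and whiskers are 95% intervals. Nkd2 is filled in both comparisons of the inhibitors, and no gene is filled for IFNγ alone.

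IFNγ alone called none of the 6 genes by edgeR, where 1.3% of all genes were called in either direction. At an unadjusted p under 0.05 there were 4, namely Jag1, Notch1, Hey1 and Nkd2, all with a negative change, beside 8.49% of all genes. DESeq2 called 2 of the 6, beside 1.82% of all genes, and limma-voom called 0, beside 1.23%. Nkd2 was closest, with -0.81 (SE 0.16, adjusted p = 0.0109), and all 3 IFNγ libraries lay below all 3 DMSO libraries. Nkd2 passed in 1 of 6 fits that left out a library, that without DMSO replicate 3 (-0.94, adjusted p = 0.00182). Over 12 other settings, which include the looser threshold of 0.05, it passed in 7, and its adjusted p was up to 0.783. Without DMSO replicate 1 its adjusted p was 0.084. Changes were -1.37 for Jag1 (SE 0.37, adjusted p = 0.0955), -1.29 for Hey1 (SE 0.37, adjusted p = 0.124) and -0.43 for Notch1 (SE 0.20, adjusted p = 0.573). For Hes1 the change was 0.55 (SE 0.67, adjusted p = 0.934), and for Notch2 it was -0.61 (SE 0.39, adjusted p = 0.78).

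Whether an inhibitor acted differently with IFNγ than without was tested as an interaction, the change with IFNγ minus that without. No member was called for A-241, where 0.0334% of all genes were, or for A-485, where 0% were. By edgeR at an unadjusted p under 0.05 there was 1 of 6 for A-241 (Nkd2) and 0 of 6 for A-485, beside 3.35% and 4.17% of all genes, and DESeq2 and limma-voom called 0 in both. For Nkd2 and A-241 the difference was 0.78 (SE 0.23, adjusted p = 0.638, 95% interval 0.29 to 1.27). The levels with A-241 were 40.3 and 39.5 CPM on average without and with IFNγ, and those of the control groups were 240 and 137 CPM. For Notch1 the differences were 0.61 with A-241 (95% interval -0.023 to 1.24) and 0.13 with A-485 (95% interval -0.48 to 0.74). For Jag1 and A-241 the interval was -0.76 to 2.20, too wide to show a difference of 1.

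The other genes of both pathways were taken from a list of 127, of which 69 were tested. A-241, averaged over both backgrounds, lowered 16 of the 69 (23.2%) and raised 4, and A-485 lowered 10 (14.5%) and raised 0, beside the 7.05% and 2.39% of all genes called lower given above and the 3.39% and 0.201% called higher. Of the 16 genes called lower with A-241, 8 were called both without and with IFNγ and 5 in neither comparison alone, and of the 10 with A-485 these were 2 and 6. None of the 4 called higher passed in either comparison alone. Medians of the 69 were -0.14 and -0.15, beside 0.0010 and -0.016 over all genes. In the Notch pathway 2 of 26 fell with A-241 and 1 of 26 with A-485, and in the Wnt pathway 14 of 43 fell and 4 rose with A-241 while 9 of 43 fell with A-485. With both libraries rich in Gm42418 left out, 20 of 70 genes tested fell and 4 rose with A-241 (9.76% and 5.74% of all genes), and 15 fell with A-485 (4.56%). With the replicate block 14 fell and 2 rose with A-241 (6.23% and 2.53% of all genes), and 8 fell with A-485 (1.83%). Fitted on only the groups compared, 12 fell and 0 rose with A-241 (4.91% and 1.47% of all genes) and 6 fell with A-485 (1.11%). With 2 surrogate variables 22 fell and 9 rose with A-241 (13.4% and 11.4% of all genes), and 17 fell and 2 rose with A-485 (6.08% and 2.28%). None of the 5 other ligand genes and none of the 2 other receptor genes of Notch passed the filter on low counts.

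In the Notch pathway, Lfng, which encodes a glycosyltransferase that modifies Notch receptors, fell by 3.15 (SE 0.46, adjusted p = 0.000132) with A-241 and fell by 2.21 with A-485 (SE 0.42, adjusted p = 0.00437). Maml3, a Mastermind coactivator, fell by 0.70 with A-241 (SE 0.15, adjusted p = 0.00318), and its change with A-485 was -0.24 (adjusted p = 0.358). None of the 10 genes of receptor processing tested, which include the secretases that cut the receptor, was called with either inhibitor. Of all genes 7.05% (A-241) and 2.39% (A-485) were called lower. Of the 6 other target genes 1 was tested, and it was not called.

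Of the Wnt ligand genes, Wnt7b and Wnt5b fell with both inhibitors when averaged over both backgrounds. For Wnt7b the change was -1.01 with A-241 (SE 0.12, adjusted p = 2.29e-05) and -1.26 with A-485 (SE 0.12, adjusted p = 1.89e-05), and for Wnt5b it was -1.56 (SE 0.30, adjusted p = 0.00136) and -1.40 (SE 0.29, adjusted p = 0.00858). Without IFNγ the changes of Wnt7b were -1.57 (adjusted p = 2.65e-05) and -1.91 (adjusted p = 4.15e-05), and with IFNγ in both groups they were -0.46 (adjusted p = 0.136) and -0.61 (adjusted p = 0.0943). The interaction with IFNγ was called in 0 of the 69 genes for either inhibitor, so that a difference between the backgrounds is not shown. Wnt7b also fell with IFNγ alone (-0.90, SE 0.17, adjusted p = 0.00699). It was at 120, 101 and 88.5 CPM in DMSO and at 51.4, 51.8 and 63.1 CPM with IFNγ, and all groups with an inhibitor ranged from 23.9 to 42.4 CPM.

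Averaged over both backgrounds, receptor genes of the Wnt pathway were called in both directions with A-241, 5 of 12 lower and 2 higher. Of all genes 7.05% and 3.39% were. Neither of the 2 called higher passed in the comparison without IFNγ or in that with it. Among Frizzled receptors, Fzd7 fell by 2.07 (SE 0.23, adjusted p = 7.7e-06) with A-241 and fell by 1.04 (SE 0.21, adjusted p = 0.00546) with A-485. Fzd9 was called lower with both (adjusted p = 2.74e-06 and 0.000104), from 2 or fewer counts in each library of A-241 alone, and no fold is given. Fzd3 and Fzd5 rose with A-241, by 1.33 (SE 0.34, adjusted p = 0.00934) and 1.11 (SE 0.23, adjusted p = 0.00246), that of Fzd3 from 3, 7 and 2 counts in DMSO, and their changes with A-485 were 0.40 (adjusted p = 0.535) and 0.27 (adjusted p = 0.53). Lgr4, which encodes a receptor for R-spondins that strengthen Wnt signals, fell by 1.72 with A-241 (SE 0.29, adjusted p = 0.000502), and its change with A-485 was -1.09 (adjusted p = 0.0285). The remaining pair that fell with A-241, named after their values were seen, were Lgr6 (-1.17, adjusted p = 0.000404) and the co-receptor gene Lrp6 (-0.82, adjusted p = 0.00963).

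Sostdc1, a secreted antagonist of Wnt and BMP ligands, had the largest fitted change with A-241 of the 69 genes, -3.90 (SE 0.21, adjusted p = 2.78e-09). Its level was 16.4, 13.3 and 12.8 CPM in DMSO and 0.21, 1.00 and 1.26 CPM with A-241, from 1, 5 and 6 counts, against 10.6, 13.2 and 12.8 CPM with A-485. The groups of DMSO and A-485 overlap, and that of A-241 lies far below both. The averaged change with A-485 was -0.50 (SE 0.16, adjusted p = 0.0781). In the direct comparison of A-241 with A-485 the difference for Sostdc1 was -3.84 (SE 0.32, adjusted p = 9.07e-06) and, with IFNγ, -2.97 (SE 0.27, adjusted p = 2.93e-05). Sfrp1, another secreted antagonist, fell by 1.49 with A-241 (SE 0.28, adjusted p = 0.00134), and its change with A-485 was -1.09 (adjusted p = 0.0276).

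In the cytoplasm, 1 of 10 genes was called, Dvl2, which encodes a Dishevelled adaptor and rose with A-241 by 0.78 (SE 0.17, adjusted p = 0.00349). Of all genes 7.05% were called lower and 3.39% higher with A-241, averaged over both backgrounds. A single call among 10 genes is therefore not read as a trait of this role. Without both libraries rich in Gm42418 the change of Dvl2 was 0.54. Of 11 genes of the nuclear complex, 4 were called lower and 1 higher with A-241, beside those shares. With A-485 3 were called lower, beside 2.39% of all genes. Tle3 and Tle1, which encode Groucho corepressors, and Bcl9l, a coactivator of β-catenin, fell with A-241. Their changes were -3.41 for Tle3 (SE 0.20, adjusted p = 7.03e-09), -1.82 for Tle1 (SE 0.40, adjusted p = 0.00427) and -2.46 for Bcl9l (SE 0.26, adjusted p = 6.24e-06). Tle3 and Bcl9l fell with A-485 too, with -2.90 (SE 0.19, adjusted p = 3.66e-07) and -1.87 (SE 0.26, adjusted p = 0.000322). Tle3 was at 41.9, 37.7 and 50.8 CPM in DMSO, and its 12 libraries with an inhibitor ranged from 1.47 to 6.89 CPM. Tcf7l2, a member of the TCF family named after its values were seen, fell by 1.62 with A-241 (SE 0.18, adjusted p = 7.23e-06) and fell by 1.23 with A-485 (SE 0.17, adjusted p = 0.000396). Pygo1, a partner of Bcl9 proteins, was called higher with A-241 (adjusted p = 0.00884), on levels of at most 3.16 CPM. With IFNγ alone it had 2, 3 and 3 counts, at or below the limit of 3 counts, and no fold is given.

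Of the feedback and target genes other than the members, 2 were tested and 1 was called lower with each inhibitor. Of all genes 7.05% (A-241) and 2.39% (A-485) were called lower, averaged over both backgrounds. Ccnd1, which encodes the cell cycle regulator cyclin D1, was at 1160, 1150 and 1330 CPM in DMSO, at 266, 248 and 260 CPM with A-241, and at 392, 372 and 417 CPM with A-485. No groups of these 3 overlap. It fell by 1.67 with A-241 (SE 0.099, adjusted p = 8.02e-09) and fell by 1.32 with A-485 (SE 0.098, adjusted p = 1.4e-06), averaged over both backgrounds. With A-241 the change was -2.23 (adjusted p = 7.54e-08) without IFNγ and -1.11 (adjusted p = 6.39e-05) with it, and the interaction of 1.12 did not pass (SE 0.19, adjusted p = 0.0402). Ccnd1 is also controlled by many other signals.

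Of the 16 genes called lower with A-241, 13 were called in all 12 fits that left out 1 library. Exceptions were Maml3 (called in 9 of 12, and not without A-241 replicate 3, or without A-241 with IFNγ replicate 1 or 2, with an adjusted p of up to 0.011), Tle1 (4 of 12, up to 0.0156) and Lrp6 (3 of 12, up to 0.0279). None of the 4 genes called higher kept the call in all 12. Fzd5 lost it without A-241 with IFNγ replicate 3 (adjusted p = 0.0125), and Dvl2 without replicate 1 (adjusted p = 0.0106) or replicate 3 (adjusted p = 0.0155) of that group. Pygo1 was called in 4 of 12 (up to 0.0298) and Fzd3 in 2 of 12 (up to 0.0375). Of the 10 genes called lower with A-485, 6 were called in all 12 fits (Wnt7b, Fzd9, Tcf7l2, Bcl9l, Tle3 and Ccnd1), while Lfng was called in 6 (up to 0.0175), Fzd7 in 5 (up to 0.0227), Wnt5b in 3 (up to 0.0301) and Lgr6 in 2 (up to 0.0309). No change turned direction in these fits. Without both libraries rich in Gm42418, the calls of Lrp6 (-0.55, adjusted p = 0.0171) and Fzd3 (1.31, adjusted p = 0.0148) with A-241 were lost, and the other 18 with A-241 and all 10 with A-485 were kept. Of the 20 genes, 9 (Lfng, Maml3, Wnt5b, Lrp6, Sfrp1, Bcl9l, Pygo1, Tle3 and Ccnd1) had their highest value of both DMSO and IFNγ in those libraries, and 4 (Lgr4, Sostdc1, Dvl2 and Tle1) had their lowest there. Without them the changes with A-241 were -2.38 for Lfng, -0.91 for Sfrp1, -1.16 for Wnt5b and -2.08 for Bcl9l, and those with A-485 were -1.43 for Lfng, -0.99 for Wnt5b and -1.49 for Bcl9l.

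**Figure D5:**
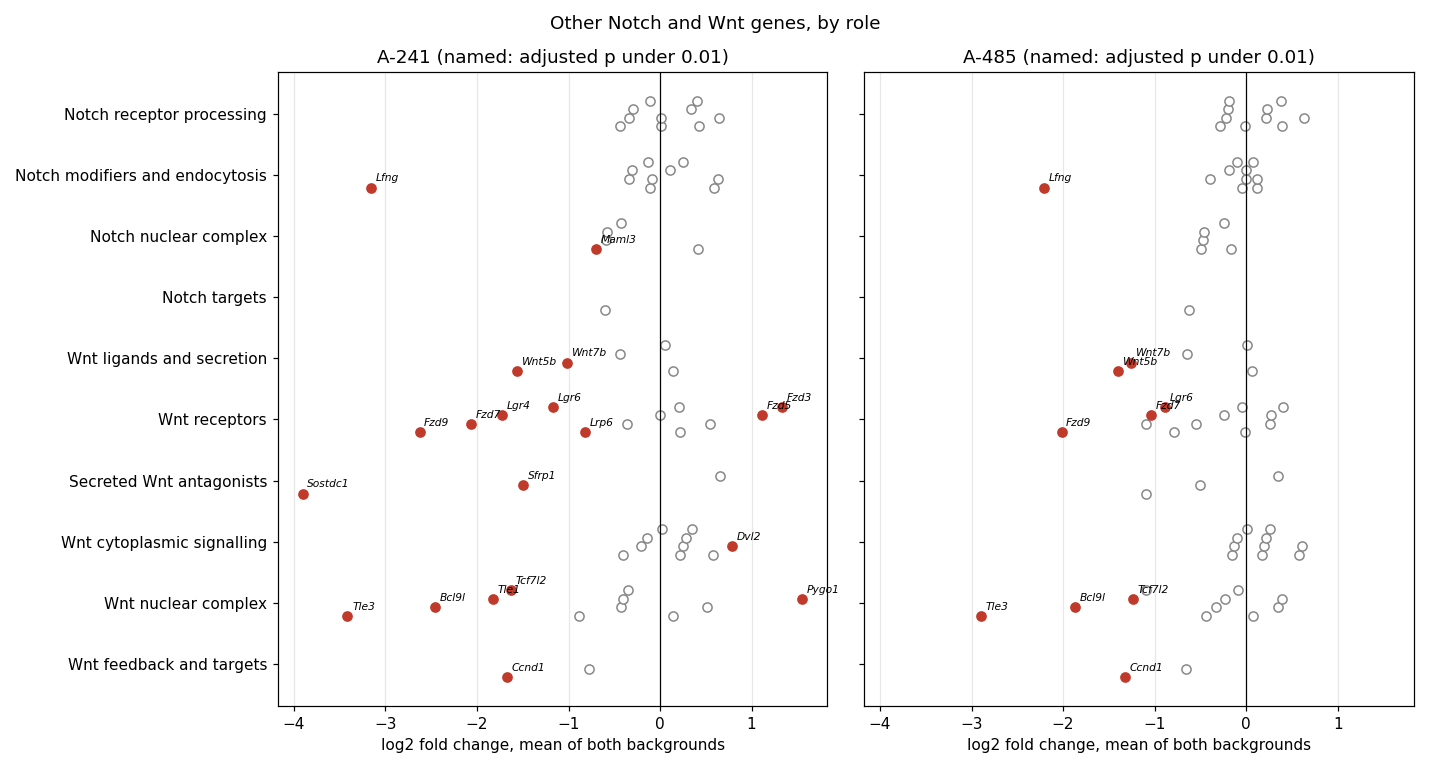
Log2 fold change, averaged over the backgrounds without and with IFNγ, of the 69 other Notch and Wnt genes tested (horizontal axis), by role (vertical axis), for A-241 (left) and A-485 (right). Each point is a gene, filled and named where the adjusted p is under 0.01. With A-241 there are 16 filled points below 0 and 4 above, and with A-485 there are 10 below and 0 above.

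The genes whose levels followed each member most closely over the 18 libraries were found by Pearson's r of log2 CPM, as a description, since the libraries share the 6 groups. For Notch1 they were Ehf (r = 0.977) and Sqle (r = 0.975), and for Nkd2 they were Tsc22d1 (r = 0.980) and Arl4c (r = 0.970). For Jag1 they were Kcnn4 (r = 0.944) and Fbxo32 (r = 0.929), and for Hey1 Pkp1 (r = 0.897) and Fam84a (r = 0.891). For Hes1 they were Cd44 (r = 0.932) and Ccn2 (r = 0.901). Notch2 had the weakest, Hdhd2 (r = 0.797) and Prkd1 (r = 0.772). Between members r was highest for Jag1 and Hey1 (0.889) and for Jag1 and Nkd2 (0.887), and lowest for Notch1 and Notch2 (0.348).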

How the data were processed

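The authors trimmed reads with cutadapt 1.7, aligned them to GRCm38 with HISAT2 2.1.0 and counted them on exons with featureCounts without a strand option, a read on several genes counting for each. The annotation release they used is not given in the sources used here. Values are raw counts per gene as deposited. Symbols and coordinates came from GENCODE vM21, and 42462 of 43629 identifiers matched. In edgeR 4.0.16 (R 4.3.3) genes were kept with filterByExpr, scaled with TMM factors and tested with glmQLFTest in 1 fit of all 18 libraries. Benjamini-Hochberg adjustment ran over 11964 genes, an adjusted p under 0.01 was a call, and 95% intervals use the SE of the fit. On simulated counts the fit was required to call most of the genes given a log2 change of 2, and it met this. No such requirement was set for smaller changes, and how many of those the fit can call is not given here. The simulated libraries were independent, with the spread typical of a gene's level. The simulation therefore does not cover genes as variable as Hes1 or libraries rich in Gm42418. The members, lists and comparisons were chosen with earlier results of these data known. Every member was named. Of the 127 other genes, those called in an averaged comparison were named, at most 3 per direction and role by size of the A-241 change, and Lgr6, Lrp6 and Tcf7l2 were named beyond that limit. Alternatives were DESeq2 1.42.0, limma-voom 3.58.1, sva 3.50.0 (2 surrogate variables), other scalings, filters and thresholds, a replicate block, fits of only the groups compared, and libraries left out.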

Additional observations from a re-analysis of the deposited data

How the results depend on the processing

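Changes of single members were followed over the settings, each gene in each comparison under each setting counting once. Of these results, 1214 kept their direction and their side of the threshold. A further 63 passed it where they had not, some of them through the looser threshold of 0.05. Another 18 missed it where they had passed, and 36 turned direction. Causes were not tested. The number of members called was 2 for A-485 against DMSO at an adjusted p under 0.05, with DESeq2 and with both Gm42418-rich libraries left out, 4 with 2 surrogate variables, and 0 when only the groups compared were fitted, where 1.94%, 1.91%, 2.28%, 5.11% and 0% of all genes were called lower. For A-485 with IFNγ those counts were 2, 3, 3, 2 and 0, beside 1.56%, 1.76%, 2.37%, 2.63% and 0%. For A-241 with IFNγ it was 5 with surrogate variables and 5 without both libraries (8.61% and 5.88% of all genes). For A-241 against A-485 it was 2 at 0.05, with DESeq2, with no filter and in the fit of only the groups compared (0.836%, 0.894%, 0.177% and 1% of all genes), 4 with surrogate variables (3.42%) and 3 without both libraries (1.48%), and with IFNγ 0 with total counts (0.435%). For IFNγ it was 1 at 0.05, with DESeq2 size factors, with upper-quartile factors, with a mean of at least 10 counts and without both libraries (1.28% to 2.03% of all genes in either direction), 2 with DESeq2 (1.82%) and 3 with surrogate variables (3.87%). For averaged A-485 it was 4 at 0.05, 5 with surrogate variables and 5 without both libraries (4.7%, 6.08% and 4.56% of all genes), and for the A-241 interaction 1 with surrogate variables (0.644%). With each library left out in turn, the count ranged from 1 to 2 for A-485 against DMSO, from 0 to 1 for A-241 against A-485 with IFNγ, from 0 to 1 for IFNγ and from 2 to 4 for averaged A-485. Counts moved for A-241 too. Against DMSO the call of Hey1 was kept in 2 of 6 such fits. With IFNγ that of Jag1 was kept in 3 of 6, and Hey1 was called in 1 of 6.

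Direction turned only for changes not called. With surrogate variables these were Notch2 with A-485 and IFNγ (0.30) and averaged (0.087), Hes1 with IFNγ (-0.22) and the interactions with A-485 of Notch2 (0.43), Hes1 (0.030), Hey1 (0.38) and Nkd2 (-0.19). That of Hey1 was 0.0040 with limma-voom. For Hes1 between inhibitors with IFNγ they were 0.054 with total counts, 0.016 with upper-quartile factors, 0.02 without both libraries, 0.024 with only the groups compared, and -0.91 to 0.36 with a library left out. With a library left out, ranges crossed 0 for Notch2 (-0.43 to 0.014 with A-485, -0.28 to 0.50 with A-241 and IFNγ), Hes1 (-1.34 to 0.30 with A-485, -0.19 to 1.80 with IFNγ) and for the interactions of Jag1 (-0.67 to 1.29), Hes1 (-1.98 to 0.0090) and Hey1 (-0.010 to 0.77) with A-241 and of Notch1 (-0.034 to 0.32), Notch2 (-0.36 to 0.14), Hey1 (-0.38 to 0.26) and Nkd2 (-0.13 to 0.18) with A-485.

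Replicate numbers gave no sign of pairing. Deviations of same-numbered libraries had a median r of -0.018 over 45 pairs (-0.804 to 0.477), and 3 of 18 libraries matched their own number best. With 3 libraries a group, and with 2 libraries rich in Gm42418 that bear different numbers, this cannot show that pairing was absent. With the replicate number as a block the counts were 4 and 1 against DMSO for A-241 and A-485, 3 and 1 with IFNγ, 1 and 1 between inhibitors, 0 for IFNγ, 4 and 2 averaged and 0 for both interactions, beside between 0% and 6.23% of all genes called lower. Depth limits Notch2, Jag2, Axin2, Nkd1 and Lef1.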
